A study of Mus musculus with 15 samples.

Results

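The potassium channel genes described here are the mouse protein-coding genes whose symbols start with Kcn, followed by family letters and a number. Entrez identifiers in the deposited files were matched to RefSeq symbols (GRCm38.p6), which gave 93 genes among the 36528 listed. They comprised 17 Kv alpha genes, 10 silent Kv modifiers, 13 EAG and KCNQ genes, 8 calcium- or sodium-activated channels, 15 inward rectifiers, 14 two-pore channels and 16 auxiliary subunits. The study sequenced polyA RNA of tumour cells sorted from mouse skin with basal cell carcinoma, a cancer that depends on Hedgehog signalling. The 15 libraries comprised 4 labelled control, whose titles add the letters MCT without explanation, 8 labelled vismodegib for 6 days and 3 labelled vismodegib for 14 days. Vismodegib inhibits Smoothened, the transducer of Hedgehog signals. Every group, control included, carried the same alleles, written K14Cre-ER; Ptch1fl/fl; p53fl/fl;Lgr5GFP. These are a tamoxifen-inducible Cre driven by the keratin 14 promoter of basal keratinocytes, conditional alleles of Ptch1 and p53, and a GFP reporter at Lgr5. Strain background, age, dose, the sort gate, whether animals were pooled and what the controls received were not stated in the sources used. The labels do not tell whether replicates were separate animals; p-values thus refer to the spread from library to library, which may be technical.

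Potassium channels let potassium leave or enter a cell along its electrochemical gradient and so set the membrane potential, which acts on calcium entry, cell volume and passage through the cell cycle. Voltage-gated, calcium-activated, inward rectifier and two-pore channels differ in what opens them. Auxiliary subunits and silent modifiers carry no current alone and change the gating or surface level of a pore-forming partner. In epidermis, potassium and calcium fluxes are known to accompany keratinocyte proliferation and differentiation.

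Total counts were 27336935 to 256569828 per library. The number ranges of the submitters' sample identifiers, which the labels do not call batches, divided the libraries in 3. Range A held 3 controls and 5 of the 6-day libraries, range B held control replicate 4 and 6-day replicates 2, 5 and 7, while all 3 libraries of 14 days made up range C. Range C and 14 days therefore cannot be told apart. The 7 basal keratinocyte and tumour cell markers summed to 21524 to 35809 CPM (counts relative to library size, scaled by TMM factors) in the controls. At 6 days the sum was 30447 to 42952 CPM and at 14 days 31794 to 44324 CPM. These markers did not move together. Krt15, called higher at both times, averaged 3866 CPM in controls, 14179 CPM at 6 days and 11849 CPM at 14 days. Krt17, not called, averaged 9108, 4201 and 4636 CPM. Melanocyte markers summed to 44.1 to 687 CPM in controls, 84.2 to 900 CPM at 6 days and 57.7 to 396 CPM at 14 days. Sebocyte markers summed to 177 to 442 CPM, 173 to 315 CPM and 200 to 391 CPM in the same groups. Schwann cell and nerve markers summed to 17.5 to 79.5 CPM, 19.1 to 80.9 CPM and 31.9 to 83.8 CPM. T cell markers reached at most 3.25 CPM in sum in any library. Fibroblast markers summed to 9.39 to 21.4 CPM in controls, 4.19 to 19.8 CPM at 6 days and 5.32 to 8.82 CPM at 14 days. Of the 6 tested, 1 was called lower at 14 days against control and 0 higher. Endothelial markers summed to 4.66 to 6.69 CPM in controls, 1.92 to 5.50 CPM at 6 days and 3.35 to 5.28 CPM at 14 days. The myeloid markers summed to 4.04 to 14.3 CPM in controls, 1.22 to 9.36 CPM at 6 days and 22.7 to 34.4 CPM at 14 days. In bulk RNA, fewer cells of a type and less RNA per cell cannot be told apart.

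Potassium channel transcripts were scarce in these cells. All 93 together took 0.0245 to 0.0617% of a library's counts, and 25 to 35 of them reached 1 CPM in any 1 library. No count was found in any library for 8 genes (Kcna5, Kcna10, Kcnc2, Kcnj3, Kcnk9, Kcnk15, Kcns2 and Kcnmb1). The filter on low counts left 52 of the 93 for testing, and 41 had too few counts. By family, 10 of 17 Kv alpha genes, 7 of 10 silent modifiers, 6 of 13 EAG and KCNQ genes and 6 of 8 calcium- or sodium-activated channels were tested. The same held for 6 of 15 inward rectifiers, 7 of 14 two-pore channels and 10 of 16 auxiliary subunits.

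Levels between genes were compared on the deposited RPKM scale, which is per length. The highest mean over the 3 groups was that of Kcnk7, a two-pore family member for which no current of its own is known, at 8.48 RPKM. It exceeded the level of 68.4% of protein-coding genes. Kcnj15 (an inward rectifier) followed at 7.01 RPKM, then the Kv4-binding auxiliary subunits Kcnip3 and Kcnip2 at 6.17 and 6.16 RPKM and the inward rectifier Kcnj8 at 3.66 RPKM. The means ± SD of Kcnk7 and Kcnj15 overlapped in every group, as did those of Kcnip3 and Kcnip2, so neither pair has a firm order. The order changed with the group. In controls the leading level was 10.4 ± 13.5 RPKM for Kcnip3 (SD, n = 4), most of it from 1 library, with 10.1 ± 3.68 RPKM for Kcnip2 and 9.33 ± 4.67 RPKM for Kcnj8. At 14 days Kcnk7 stood at 10.7 ± 2.73 RPKM and Kcnj15 at 9.98 ± 1.12 RPKM, while Kcnj8 was at 0.173 ± 0.168 RPKM (SD, n = 3).

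**Figure D1:**
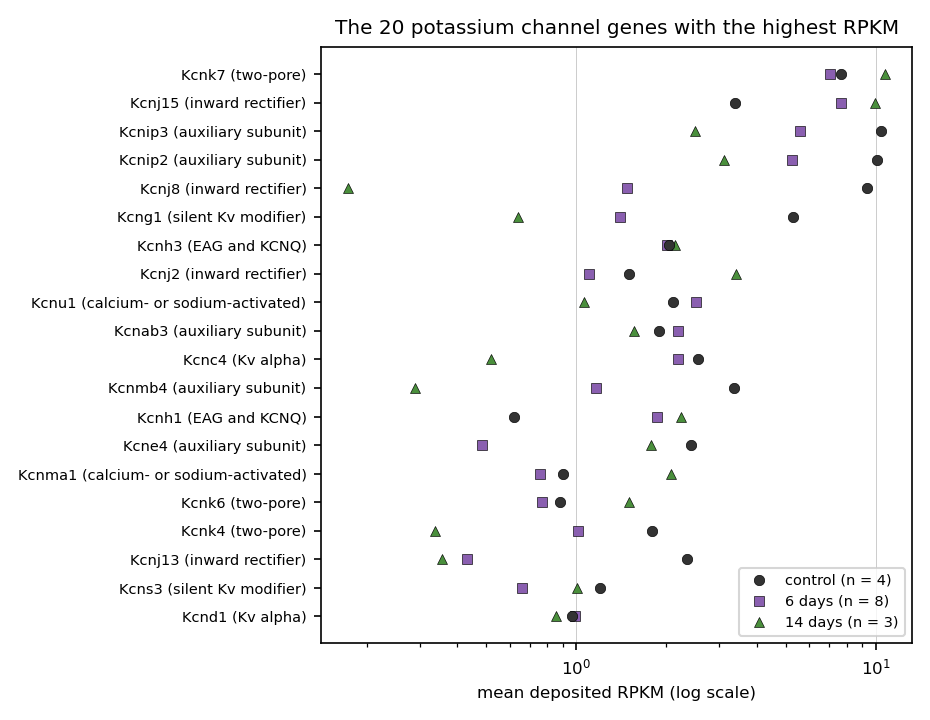
Mean deposited RPKM (log axis) of the 20 potassium channel genes with the highest mean over the 3 groups, with the family in brackets. Circles are controls (n = 4), squares 6 days (n = 8) and triangles 14 days (n = 3); Kcnj8 spans the widest interval among the 5 highest, with 0.173 RPKM at 14 days and 9.33 RPKM in controls.

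Summed by family on the RPKM scale, the auxiliary subunits came to 29.8 ± 19.5 in controls (SD, n = 4), 15.9 ± 5.65 at 6 days (n = 8) and 10.2 ± 2.11 at 14 days (n = 3). The silent modifiers came to 7.92 ± 5.16, 2.41 ± 1.48 and 2.10 ± 0.819 RPKM over the same 3 groups. The ranges of auxiliary subunit sums at 14 days (7.93 to 12.1 RPKM) and in controls (16.0 to 58.4 RPKM) did not overlap, nor did those of the silent modifiers (1.19 to 2.78 RPKM at 14 days, 4.32 to 15.6 RPKM in controls). EAG and KCNQ genes summed to 4.09 to 5.78 RPKM at 14 days and 2.37 to 3.62 RPKM in controls, without overlap. These sums were not tested, and single genes made up most of the difference in the silent modifiers and in the EAG and KCNQ genes. Kcng1 averaged 5.30 RPKM in controls and 0.640 RPKM at 14 days. Kcnh1 averaged 0.620 RPKM in controls and 2.25 RPKM at 14 days, while Kcnh3 had 2.04 and 2.14 RPKM. In control replicate 4, which had the highest auxiliary subunit sum, Kcnip3 had 30.5 RPKM and Kcnip2 15.2 RPKM. Inward rectifiers and two-pore channels kept overlapping sums in every group.

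At 6 days against control, 2 of the 52 tested genes passed an adjusted p of 0.05 (edgeR's quasi-likelihood test, Benjamini-Hochberg over 18751 genes). Kcnh1 was higher and Kcng2 lower. Over all tested genes 1.26% were called, 0.485% higher and 0.773% lower. In the same 2 members of 52 the 6-day and control libraries did not overlap, against 2.69% of all tested genes. At 14 days against control 7 members were called. Kcnh1, Kcna4 and Kcnj15 were higher, against 3.25% of all tested genes, and Kcnj8, Kcng2, Kcnip2 and Kcnmb4 were lower, against 3.35%; 6.60% of all genes were called. Libraries at 14 days did not overlap with controls in 14 of 52 members, where the share over all tested genes was 23.4%. Both comparisons share the 4 control libraries.

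The median log2 fold change of the 52 genes was -0.12 at 6 days and -0.33 at 14 days, beside 0.03 and -0.02 over all tested genes. Both medians stayed the same with Kcna4 and Kcnd2, which had no count in controls, placed at their lower bound. Their sign was not stable: under limma-voom with sample weights the 14-day median of the members was 0.24 (0.04 over all tested genes), and without control replicate 4 the 6-day median was 0.03 (0.06 over all tested genes). At 14 days 33 of the 52 had a negative estimate, as had 51.0% of all tested genes. Family medians at 14 days were lowest in Kv alpha genes (-0.76), silent modifiers (-0.68) and auxiliary subunits (-0.61), and highest in two-pore channels (0.73). Other ion channel families, read in the same fit, had 0 called genes at 6 days, against 1.26% of all tested genes. At 14 days 1 of 15 tested TRP channel genes and 1 of 18 chloride channel genes were called. So were 0 of 14 calcium channel genes and 0 of 6 sodium channel genes, against 6.60% of all tested genes. With so few genes tested at either time, these counts do not set the potassium channel genes apart.

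Kcnh1 rose at both times. It encodes a voltage-gated channel of the EAG family, little expressed in most adult tissues outside the brain and known for its presence in many human tumours (Entrez 16510, chromosome 1, 192189144 to 192510159, GRCm38). The 4 controls had 8.27, 6.83, 5.12 and 4.80 CPM. At 6 days the lowest, median and highest of 8 libraries were 15.9, 17.3 and 27.1 CPM, and the 14-day libraries had 26.2, 23.5 and 19.9 CPM. All 11 treated libraries lay above all 4 controls, whereas the 6-day and 14-day libraries overlapped. The rise was 3.08-fold at 6 days (log2 1.62 ± 0.22 SE, edgeR adjusted p = 0.00472) and 3.70-fold at 14 days (log2 1.89 ± 0.25 SE, edgeR adjusted p = 0.0018).

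The Kcnh1 call held at both times in each of 15 fits that left out 1 library. Within range A the 6-day libraries averaged 19.1 CPM and the controls 6.74 CPM (log2 difference 1.49, edgeR adjusted p = 0.0227), and within range B 19.5 CPM and 4.80 CPM (log2 2.02, with a single control, edgeR adjusted p = 0.0574). Kcnh3, a relative of the same EAG superfamily best known from brain, had means of 10.4 ± 4.08, 10.5 ± 4.76 and 11.2 ± 5.42 CPM in controls, at 6 days and at 14 days (SD, n = 4, 8 and 3). Its log2 estimate was 0.02 at 6 days and 0.10 at 14 days, and its groups overlapped fully. The cardiac channel gene Kcnh2 was the only other member of this family with 14-day libraries (1.05 to 1.83 CPM) above all controls (0 to 0.759 CPM), with an edgeR adjusted p of 0.155. It was singled out after its values were seen.

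**Figure D2:**
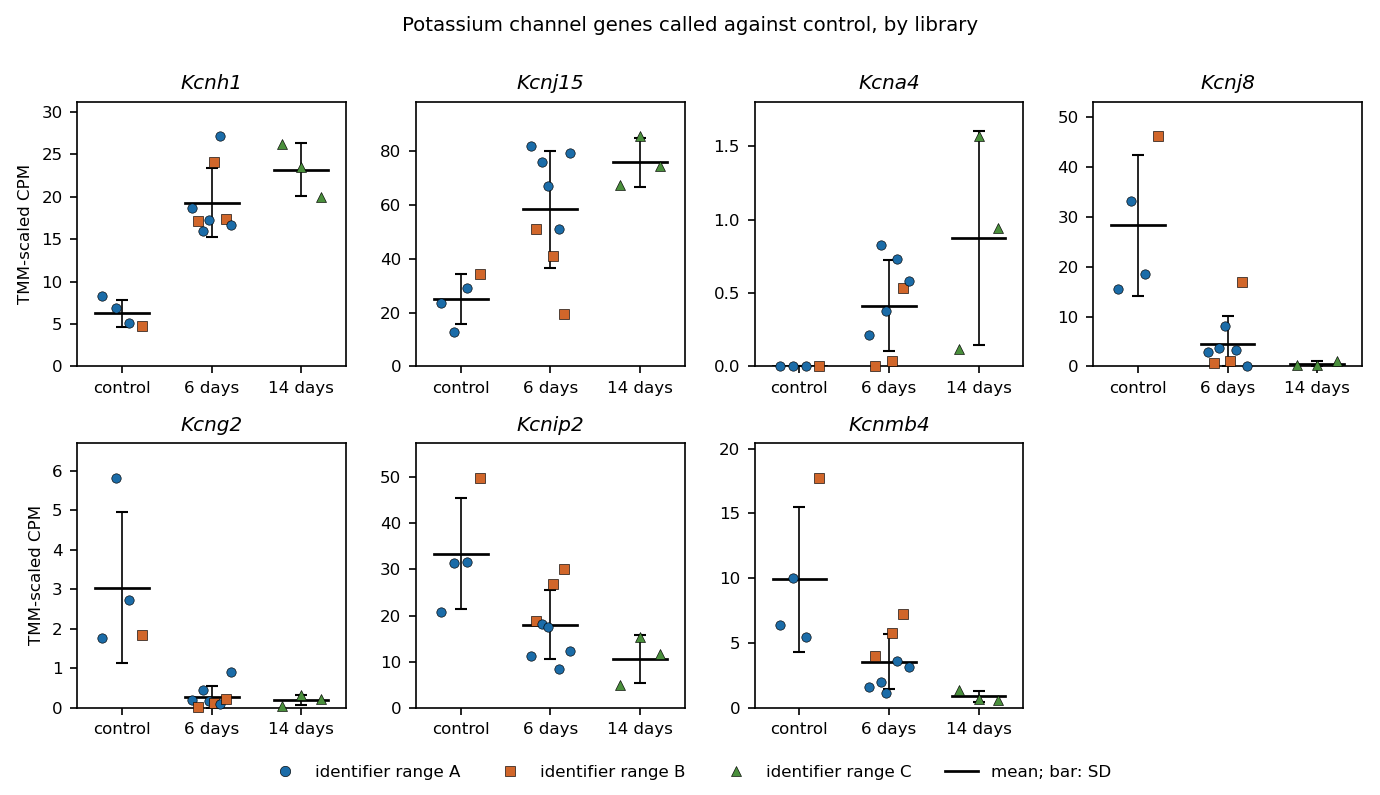
TMM-scaled CPM of the 7 potassium channel genes called against control at either time, 1 panel per gene and 1 symbol per library, shaped and coloured by identifier range. Lines are group means and bars the SD (drawn to 0 where it would go below); Kcnh1 at 15.9 CPM and above in every treated library is apart from its controls at 8.27 CPM and below, and Kcnj8 is at most 1.14 CPM at 14 days.

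The 250 bases before the start site of Kcnh1, the member called higher at both times, are given with those of Kcnj8 and its chromosomal neighbour Abcc9, a pair that was low together at 14 days. Sequences are from RefSeq (GRCm38.p6), 5′ to 3′ on the gene's strand, and capitals mark a GC box (GGGCGG or its other strand CCGCCC). For Kcnh1 and Abcc9 the start site of the promoter table lies inside the outermost bounds of the gene. The windows are chr1:192190527-192190776 (plus strand), chr6:142571615-142571864 (minus strand) and chr6:142702275-142702524 (minus strand).
Kcnh1: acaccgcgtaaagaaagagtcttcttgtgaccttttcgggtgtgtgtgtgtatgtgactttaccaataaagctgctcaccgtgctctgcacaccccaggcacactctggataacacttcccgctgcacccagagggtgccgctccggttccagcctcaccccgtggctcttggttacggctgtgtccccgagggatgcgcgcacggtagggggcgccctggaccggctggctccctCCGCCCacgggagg
Kcnj8: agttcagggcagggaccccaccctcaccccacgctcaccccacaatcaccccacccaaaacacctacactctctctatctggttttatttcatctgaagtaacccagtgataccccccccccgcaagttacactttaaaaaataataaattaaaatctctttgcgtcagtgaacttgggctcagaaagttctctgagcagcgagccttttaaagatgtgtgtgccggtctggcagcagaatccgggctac
Abcc9: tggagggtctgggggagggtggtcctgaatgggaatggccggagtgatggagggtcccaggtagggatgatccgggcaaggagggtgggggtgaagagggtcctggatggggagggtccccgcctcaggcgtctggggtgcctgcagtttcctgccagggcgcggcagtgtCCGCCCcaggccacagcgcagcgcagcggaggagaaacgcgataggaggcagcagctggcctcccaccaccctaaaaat

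The Kcnj8 window had a GC content of 49.2% and no GC box, whereas the Kcnh1 and Abcc9 windows had 62.0% and 66.8% and 1 GC box each, on the other strand. Windows of this length were in the table for 68 of the 93 members. On either strand, 41 of the 68 (60.3%) held a GC box, against 46.8% of 17001 protein-coding genes. A TATA box (TATAAA) was in 3 of the 68 (4.41%), against 13.6% of the same genes. The letters GACCACCCA, the consensus bound by GLI factors of the Hedgehog pathway, were in 0 of the 68 and in 0.188% of all windows. None of these motifs overlaps another in letters, and a match is a description of the window only.

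Among Kv alpha genes, which form the voltage-gated pore, Kcna4 was called higher at 14 days. Kcna4 encodes a rapidly inactivating subunit of the Shaker group (Entrez 16492, chromosome 2, 107290589 to 107326804). It had no count in any of the 4 controls. At 6 days the lowest, median and highest library had 0, 0.458 and 0.830 CPM, with counts in 7 of 8, and the 14-day libraries had 0.116, 1.57 and 0.942 CPM. Against a floor of 3 counts over the 4 controls, the mean was at least 56.0-fold higher at 14 days (edgeR adjusted p = 0.0264) and at least 26.5-fold higher at 6 days (edgeR adjusted p = 0.0862). Without 14-day replicate 2 the 14-day bound was 33.9-fold. The lowest 14-day library lay below most 6-day ones. The 14-day call was lost without control replicate 2, 3 or 4 or without 14-day replicate 2 or 3 (edgeR adjusted p up to 0.065). The Shal gene Kcnd2, noted after its values were seen, likewise had no count in controls and 0.101 to 0.445 CPM at 14 days, at least 20.6-fold higher (edgeR adjusted p = 0.0713).

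Kcna7 encodes a further Shaker pore subunit and Kcnc4 a Shaw one, a group known from fast-firing neurons and muscle. Kcna7 had 0.840 to 3.20 CPM in controls, 0.887 to 3.50 CPM at 6 days and 0.535 to 0.589 CPM in the 14-day libraries, which lay below all others. Its log2 difference at 14 days was -1.62 from control (edgeR adjusted p = 0.102) and -1.81 from 6 days (edgeR adjusted p = 0.0698). Kcnc4 had 6.83 to 64.3 CPM in controls, 9.28 to 44.3 CPM at 6 days and 2.48, 7.87 and 4.86 CPM at 14 days, where it was below every 6-day library (edgeR adjusted p = 0.0987). The high Kcnc4 values in controls and at 6 days were those of range B.

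The silent modifiers Kcng1 and Kcng2 carry no current alone and join Kv2 pores such as the one encoded by Kcnb2. Kcng2 was the member called lower at both times (Entrez 240444, chromosome 18, 80294544 to 80364254). The controls had 1.76, 5.82, 2.72 and 1.85 CPM. At 6 days the lowest, median and highest library had 0.0113, 0.180 and 0.912 CPM, and the 14-day libraries had 0.0547, 0.310 and 0.227 CPM. Every treated library lay below every control. The fall was 11.2-fold at 6 days (log2 -3.49 ± 0.75 SE, edgeR adjusted p = 0.0367) and 15.3-fold at 14 days (log2 -3.93 ± 1.10 SE, edgeR adjusted p = 0.0457).

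Kcng2 overlaps the loci Gm29913 and D330025C20Rik, and strand handling was not stated, so their reads cannot be told apart. The 6-day call of Kcng2 was lost without control replicate 2 or 3, 6-day replicate 1, 3, 4, 5 or 6, or 14-day replicate 3 (edgeR adjusted p up to 0.134). The 14-day call was lost without control replicate 2 or 3, 6-day replicate 1, 3, 4, 5 or 7, or any 14-day replicate (edgeR adjusted p up to 0.18), without a filter on low counts and in a fit of the 2 groups alone. Kcng1 had a wider spread. Its controls had 8.24, 83.2, 29.4 and 21.7 CPM, the 6-day libraries 0.280 to 30.9 CPM and the 14-day ones 0.670, 4.07 and 8.38 CPM, and the groups overlapped (14 days, log2 -3.03, edgeR adjusted p = 0.152). That estimate was -2.17 without control replicate 2 and -3.90 without 14-day replicate 3. Their Kv2 partner Kcnb2 had 1.27 ± 0.89 CPM at 14 days and 2.29 ± 2.0 CPM in controls (SD, n = 3 and 4; edgeR adjusted p = 0.698).

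The auxiliary subunits included 2 of the 4 members called lower at 14 days. Kcnip2 and Kcnip3 encode calcium-binding partners of the Kv4 pores, and Kcnip3 is also known as a transcriptional repressor. Kcnip2 (Entrez 80906, chromosome 19, 45792346 to 45816422) had 20.8, 31.4, 31.6 and 49.9 CPM in controls, 8.48 to 30.1 CPM with a median of 17.9 CPM at 6 days, and 4.95, 15.3 and 11.6 CPM at 14 days. The 14-day libraries lay below all controls and overlapped with 6 days. The fall at 14 days was 3.16-fold (log2 -1.66 ± 0.47 SE, edgeR adjusted p = 0.0474), close to the threshold, and it stayed called in 4 of 15 fits with 1 library left out. It was lost without control replicate 2, 3 or 4, 6-day replicate 1, 2, 3, 4 or 8, or any 14-day replicate, without a filter on low counts and in a fit of the 2 groups alone (edgeR adjusted p up to 0.195).

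Kcnip3 was more variable. It had 11.6, 29.3, 42.8 and 224 CPM in controls, where the highest value was in range B, then 19.5 to 94.3 CPM at 6 days and 10.9, 23.0 and 22.7 CPM at 14 days. Its estimate at 14 days was log2 -2.03 ± 0.83 SE (edgeR adjusted p = 0.154), and log2 -0.57 without control replicate 4. The pore partners of these subunits were low. Kcnd1 had 2.01 ± 0.85 CPM at 14 days and 2.23 ± 0.71 CPM in controls, Kcnd3 1.38 ± 0.82 CPM at 14 days and 2.20 ± 1.2 CPM in controls, and neither was called. Kcnab3, a beta subunit of Shaker channels, had 5.63 ± 3.88 CPM in controls, 6.69 ± 2.89 CPM at 6 days and 4.75 ± 1.36 CPM at 14 days (edgeR adjusted p at least 0.57 in each comparison).

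Large-conductance calcium-activated (BK) channels are built from the pore Kcnma1 with beta subunits such as Kcnmb4 and gamma subunits such as Lrrc55 and Lrrc26. Kcnmb4 (Entrez 58802, chromosome 10, 116417861 to 116473859) had 6.397, 10.04, 5.44 and 17.8 CPM in controls. The 6-day libraries ranged over 1.11 to 7.24 CPM with a median of 3.35 CPM, and the 14-day libraries had 1.39, 0.675 and 0.555 CPM. The 14-day libraries were below every control, and 1 of them lay within the range of 6 days. The fall was 11.3-fold at 14 days (log2 -3.50 ± 0.70 SE, edgeR adjusted p = 0.0106), and at 6 days the estimate was log2 -1.48 ± 0.47 SE (edgeR adjusted p = 0.16). The 14-day call was lost without 14-day replicate 2 or 3 (edgeR adjusted p up to 0.0556). Within range A the 6-day libraries averaged 2.26 CPM and the controls 7.29 CPM, and within range B 5.66 CPM and 17.8 CPM. With range B as a covariate the 6-day difference was called (log2 -1.68, edgeR adjusted p = 0.0122). Kcnmb4 overlaps the antisense loci Kcnmb4os1 and Kcnmb4os2, whose reads cannot be told apart from it.

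Lrrc55, a gamma subunit outside the symbol rule (Entrez 241528, chromosome 2, 85188067 to 85198750), had 2.14, 14.5, 4.62 and 2.60 CPM in controls, 0.153 to 4.03 CPM at 6 days and 0.349, 0.217 and 0.732 CPM at 14 days. It fell at 14 days (log2 -3.78 ± 1.01 SE, 13.7-fold, edgeR adjusted p = 0.0371), and without control replicate 2 the size was 7.15-fold, without 14-day replicate 3 it was 20.8-fold, neither of them called. The call was also lost without control replicate 3, 6-day replicate 3, 14-day replicate 1 or 14-day replicate 2 and in a fit of the 2 groups alone. The pore gene Kcnma1, named for this comparison after its values were seen, had 7.29 to 36.2 CPM in controls, 2.52 to 39.6 CPM at 6 days and 37.4, 30.8 and 51.2 CPM at 14 days (log2 1.22 ± 0.73 SE, edgeR adjusted p = 0.331). The pore thus had a positive estimate at 14 days where both subunits were lower, and its groups overlapped. Of the other gamma genes, Lrrc26 had at most 0.605 CPM and Lrrc38 at most 0.0388 CPM. Lrrc52 had counts in 2 controls only, at 0.238 and 0.660 CPM. Kcnu1, a pH-sensitive relative of the BK pore known from sperm, had 8.86 ± 3.10 CPM in controls, 10.8 ± 5.73 CPM at 6 days and 4.57 ± 2.14 CPM at 14 days (edgeR adjusted p = 0.302 for 14 days against control).

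**Figure D3:**
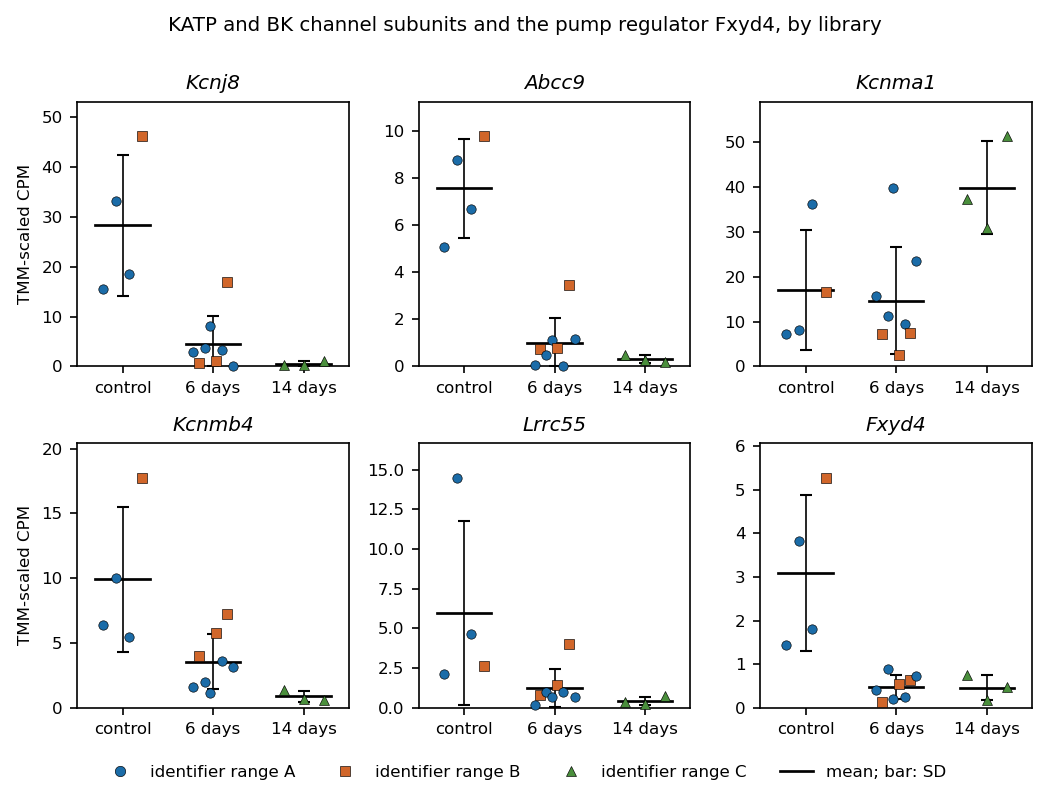
TMM-scaled CPM by library of the KATP subunits Kcnj8 and Abcc9, the BK pore Kcnma1 with its subunits Kcnmb4 and Lrrc55, and the sodium pump regulator Fxyd4; symbols, means and SD bars as in the plot of called genes. Abcc9 is at most 0.493 CPM at 14 days and at least 5.10 CPM in controls, while Kcnma1 at 14 days (30.8 CPM and above) overlaps the highest control (36.2 CPM).

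Among inward rectifiers, which pass potassium more easily into the cell than out of it, 1 was lower and 1 higher at 14 days. Kcnj8 forms the pore of ATP-sensitive (KATP) channels together with the sulfonylurea receptor encoded by Abcc9, and the pair is well known from pericytes and smooth muscle. Kcnj8 (Entrez 16523, chromosome 6, 142564837 to 142571614) had 15.4, 33.2, 18.6 and 46.2 CPM in controls. At 6 days it ranged over 0 to 16.9 CPM with a median of 3.07 CPM, and at 14 days it had 0.239, 0.233 and 1.14 CPM. Only 6-day replicate 7, of range B, reached the level of the lowest control, and all 14-day libraries lay far below it. The 14-day estimate was log2 -5.72 ± 1.53 SE (edgeR adjusted p = 0.0378) and the 6-day one log2 -2.62 ± 0.92 SE (edgeR adjusted p = 0.205).

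Abcc9 (Entrez 20928) lies next to Kcnj8 on chromosome 6, at 142587862 to 142702766, 16247 bases away. Its values were 5.10, 8.79, 6.69 and 9.79 CPM in controls, 0 to 3.48 CPM with a median of 0.751 CPM at 6 days, and 0.493, 0.264 and 0.185 CPM at 14 days. All 11 treated libraries lay below all 4 controls. The estimate was log2 -4.59 ± 1.26 SE at 14 days (edgeR adjusted p = 0.0417) and log2 -2.93 ± 0.80 SE at 6 days (edgeR adjusted p = 0.0956). Without 6-day replicate 7 the 6-day estimates were log2 -3.62 for Abcc9 and log2 -3.35 for Kcnj8. The other KATP genes were near 0 in every group: Kcnj11 reached 0.0682 CPM at most and Abcc8 0.294 CPM.

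Both 14-day calls were lost in fits that left out single libraries, although the estimates stayed negative. That of Kcnj8 was lost without control replicate 2, 3 or 4, 6-day replicate 3 or any 14-day replicate (edgeR adjusted p up to 0.158). That of Abcc9 was lost without control replicate 2, 3 or 4, 6-day replicate 2, 3, 4, 5 or 8, or any 14-day replicate (edgeR adjusted p up to 0.151), and without a filter on low counts. The fold for Kcnj8 was 52.9 with all libraries and 29.0 by limma-voom. With 1 library left out it was 40.9 to 118, the highest without 14-day replicate 3. The fold for Abcc9 was 24.1 with all libraries and 19.8 to 33.3 with 1 library left out. Of the 9 pericyte and smooth muscle markers 7 were tested and 0 were called at either time by edgeR. They summed to 357 to 1006 CPM in controls, 239 to 787 CPM at 6 days and 322 to 512 CPM at 14 days. Most of that was Cspg4, with 343 CPM at 14 days and 579 CPM in controls on average. The 14-day estimate was negative in 6 of the 7 and positive in Notch3 (51.4 CPM at 14 days, 36.4 CPM in controls). Mcam averaged 21.2 CPM at 14 days and 67.9 CPM in controls (edgeR adjusted p = 0.111), and Acta2 2.88 CPM at 14 days and 10.05 CPM in controls (edgeR adjusted p = 0.17). Tagln averaged 4.84 CPM at 14 days and 13.1 CPM in controls (edgeR adjusted p = 0.168), with every 14-day library below every control. Pdgfrb and Myh11 averaged under 1 CPM in each group. The part of these cells, or of the fibroblasts and endothelium whose marker sums are given above, in the Kcnj8 and Abcc9 values was not tested. Of the other 2, Rgs5 had no count in any control or 6-day library and at most 0.192 CPM at 14 days, and Des had at most 0.0225 CPM in any library. The overlapping locus 5330439B14Rik cannot be told apart from Abcc9.

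Kcnj15 encodes an inward rectifier found in epithelia such as kidney and was the second highest member per length (Entrez 16516, chromosome 16, 95257558 to 95300260). Controls had 23.6, 12.9, 29.3 and 34.3 CPM. At 6 days the range was 19.5 to 82.1 CPM with a median of 59.0 CPM, and the 14-day libraries had 67.7, 85.6 and 74.4 CPM. All 14-day libraries lay above all controls. The rise at 14 days was 3.03-fold (log2 1.60 ± 0.40 SE, edgeR adjusted p = 0.029), and the 6-day estimate was log2 1.22 ± 0.34 SE (edgeR adjusted p = 0.106).

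Within range A the 6-day libraries of Kcnj15 averaged 71.1 CPM and the controls 22.0 CPM (log2 1.69, edgeR adjusted p = 0.0202). Within range B they averaged 37.2 CPM, with a single control at 34.3 CPM (log2 0.11). The difference between these effects had an unadjusted p of 0.0179 and an edgeR adjusted p of 0.359. The 14-day call was lost without control replicate 1, 2 or 3, without any 14-day replicate and in a fit of the 2 groups alone (edgeR adjusted p up to 0.0823). Kcnj15 overlaps the locus Gm31641. Kcnj2, a strong rectifier that holds the resting potential in muscle, had 19.0, 2.91, 4.09 and 12.4 CPM in controls, 2.61 to 15.1 CPM at 6 days and 47.2, 4.11 and 15.4 CPM at 14 days, with groups that overlapped (edgeR adjusted p = 0.362 for 14 days against control). Its neighbour Kcnj16, 38195 bases away on chromosome 11 and noted after its values were seen, had 19.0, 1.23 and 6.52 CPM in the same 14-day libraries, and both were highest in 14-day replicate 1.

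The two-pore channels carry the background leak of potassium, and 0 of their 7 tested genes were called at either time by edgeR. Kcnk7 had 19.97 ± 8.64 CPM in controls, 18.7 ± 3.27 CPM at 6 days and 28.5 ± 7.08 CPM at 14 days (SD, n = 4, 8 and 3), an estimate of log2 0.52 ± 0.32 SE for 14 days against control (edgeR adjusted p = 0.351). Ehbp1l1 overlaps it. Kcnk4, a mechanically gated channel of sensory neurons, had 1.57, 1.26 and 1.99 CPM at 14 days, below all controls at 3.04, 4.55, 2.47 and 23.2 CPM (log2 -2.38 ± 0.92 SE, edgeR adjusted p = 0.133). Without control replicate 4, the highest of them, the estimate was log2 -1.06. At 6 days the values were 7.77 to 10.3 CPM in range B and 1.47 to 3.19 CPM in range A. Kcnk13, too low to be tested and noted after its values were seen, had no count in controls. It had at most 0.113 CPM at 6 days and 0.807, 0.163 and 0.286 CPM at 14 days, on average at least 26.8-fold higher than the control floor of 3 counts (14.4-fold without 14-day replicate 1). The sum of the myeloid markers given above was also higher at 14 days, and 2 of the 7 markers were called against control. C1qb averaged 7.49 CPM at 14 days and 0.03 CPM in controls. Cd68 alone had a negative estimate, with 4.37 CPM at 14 days and 4.94 CPM in controls on average. Ptprc and Lyz2 overlapped with their controls. The part of these markers in the Kcnk13 counts was not tested.

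Beyond the channel genes themselves, 42 partner and transport genes were read in the same fit, of which 31 were tested. These lists were drawn up with earlier results of these data known. At 6 days 0 were called higher and 1 lower, against 0.485% and 0.773% of all tested genes. At 14 days 0 were called higher and 4 lower, against 3.25% and 3.35%. The 4 were Abcc9, Lrrc55, Fxyd3 and Fxyd4. Fxyd3 and Fxyd4 encode small membrane proteins that regulate the sodium-potassium pump, and Fxyd3 is known from skin and from several carcinomas.

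Fxyd3 (Entrez 17178, chromosome 7, 31070535 to 31076697) had 413, 290, 331 and 582 CPM in controls, 363 to 775 CPM with a median of 498 CPM at 6 days, and 107, 184 and 164 CPM at 14 days. The 14-day libraries lay below all others. The 14-day level was 2.66-fold lower than control (log2 -1.41 ± 0.32 SE, edgeR adjusted p = 0.0168) and 3.57-fold lower than 6 days (log2 -1.84 ± 0.30 SE, edgeR adjusted p = 0.00866). Both calls were lost without 14-day replicate 1 or 3, and the one against control also in a fit of the 2 groups alone. Lgi4 overlaps Fxyd3.

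Fxyd4 (Entrez 108017, chromosome 6, 117933558 to 117937714) had 1.44, 3.83, 1.81 and 5.28 CPM in controls, 0.124 to 0.889 CPM at 6 days and 0.753, 0.171 and 0.463 CPM at 14 days. Every treated library lay below every control, with log2 -2.71 ± 0.55 SE at 6 days (edgeR adjusted p = 0.0296) and log2 -2.74 ± 0.78 SE at 14 days (edgeR adjusted p = 0.0473). The 6-day call was lost without control replicate 2 or 4, 6-day replicate 1 or 5, or the range B libraries (edgeR adjusted p up to 0.0926). The 14-day call stayed in 2 of 15 fits with 1 library left out, those without control replicate 1 and without 6-day replicate 2, and was also lost without the range B libraries, without a filter on low counts and in a fit of the 2 groups alone. None of the 5 tested cation-chloride cotransporters and none of the 5 volume-regulated anion channel genes was called in any comparison.

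Against 6 days, 0 of the 52 potassium channel genes were called at 14 days, where 3.89% of all tested genes were. At an unadjusted p under 0.05 there were 11 members (23.1% of all tested genes). DESeq2 called 5 (13.9% of all) and limma-voom with sample weights 11 (25.0% of all), shares of the members no higher than those of all genes. The 2 groups did not overlap in 4 members, against 11.7% of all tested genes. Among them Kcnh2 had higher values at 14 days, and Kcna7 and Kcnc4 had lower ones. This comparison shares its libraries with those above.

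Some potassium channel genes differed with the identifier range, a smaller share than over all tested genes. With treatment group in the model, 16 of 52 (30.8%) differed between range B and the other ranges, against 43.1% of all tested genes. Of these, 13 were higher in range B. Range C held only 14-day libraries, so the difference was estimated from ranges A and B, within controls and 6 days. Kcnk4, whose 6-day values by range are given above, had 23.2 CPM in the control of range B and 2.47 to 4.55 CPM in those of range A (log2 2.33, edgeR adjusted p = 3.6e-06). Kcnc4 had 25.7 to 44.3 CPM in the range B libraries at 6 days and 9.28 to 17.1 CPM in the 5 of range A. Its control in range B had 64.3 CPM, and those in range A had 6.83 to 14.2 CPM (log2 1.68, edgeR adjusted p = 0.000515). Kcnab3, Kcnmb4, Kcna7, Kcnu1 and Kcnip2 were also higher in range B, and Kcnk7 (log2 -0.61), Kcnj16 and Kcnb2 were lower. The 3 genes Kcnh1, Kcng2 and Kcnj8 were not among the 16.

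**Figure D4:**
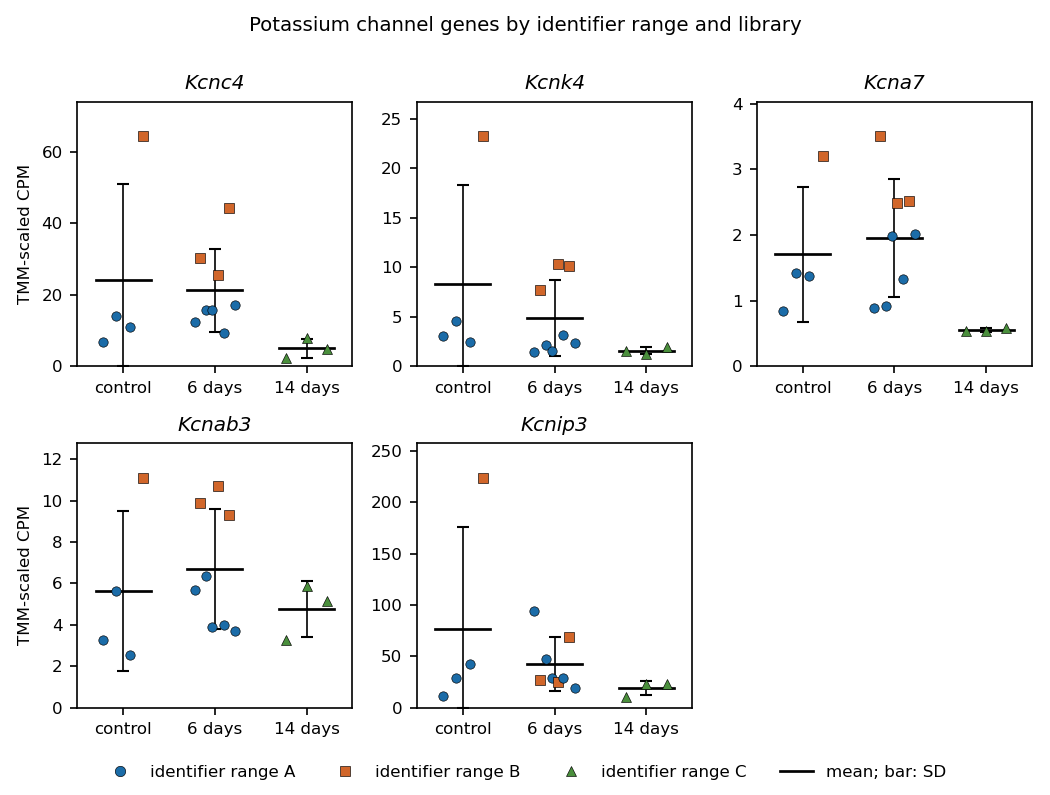
TMM-scaled CPM by library of 5 potassium channel genes, with the identifier range as symbol and colour; lines are group means and bars the SD (drawn to 0 where it would go below). In Kcnc4, Kcnk4, Kcna7 and Kcnab3 the range B squares lie above the range A circles of the same group, while in Kcnip3 only the control square, at 224 CPM, does.

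With range B as a covariate, 5 members were called at 6 days (4.62% of all tested genes), 12 at 14 days (17.0%) and 3 between 14 and 6 days (10.9%). For 14 days this fit takes range C to be like range A, which cannot be tested here. Kcna4, Kcnip2 and Kcnmb4 joined Kcnh1 and Kcng2 at 6 days, and Kcnc4 (log2 -1.37, edgeR adjusted p = 0.0435) and Kcnk4 (log2 -1.19, edgeR adjusted p = 0.0277) were among those lower at 14 days. A test of whether the 6-day effect differed between ranges A and B, with a single control in range B, called 0 of 49 members by edgeR. It called 0.056% of all 17843 genes tested. At an unadjusted p under 0.05 there were 4 members. The share of all genes at that level was not worked out, so this count cannot be read either way.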

How the data were processed

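The 15 libraries are polyA RNA of sorted tumour cells. Their deposited counts hold, per the file headers, uniquely aligned reads for each gene. Deposited RPKM values divide these counts by gene length and a library size factor, also per the file headers. The submitters' processing notes name GSNAP as aligner and GRCm38 as genome. Versions, gene models and strand handling were not stated in the sources used. Of 36528 Entrez identifiers, 31049 matched RefSeq (GRCm38.p6). Groups came from the treatment label, and replicate numbers follow accession order. RPKM served for levels between genes, their means by group and the family sums, none of which was tested.

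The test was the quasi-likelihood F test of edgeR 4.0.16 (R 4.3.3), in 1 fit without covariates over 15 libraries and the 18751 genes that filterByExpr kept by group, scaled by TMM factors, with 12 residual degrees of freedom. A gene was called where its p, adjusted by Benjamini-Hochberg over all these genes, was under 0.05. A floor of 3 counts equals at most 0.105 CPM in a library and covers counting error only. All 105 pairs of libraries differed by more than counting noise (chi-square at least 56.8 per degree of freedom). Fits were tested on simulated data. Other settings were DESeq2 1.42.0, limma-voom (limma 3.58.1) with sample weights, upper-quartile or RLE factors, 2 other filters on low counts (none, and at least 1 CPM in at least 3 libraries), the 2 groups alone, the identifier ranges, and each library left out. Tables and plots were made in Python 3.11.15 (pandas 2.3.3, numpy 2.4.6, matplotlib 3.10.9).

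Members and lists were chosen with earlier results of these data known. Named with values were members called in any comparison, members with separate groups, a log2 change of at least 1 and a mean of at least 1 CPM, the 10 highest by RPKM, and partner genes that were called or whose member partner was named. That gave 17 members, and genes outside the rule are marked in the text. Some genes are not reported here.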

Additional observations from a re-analysis of the deposited data

Results flagged for a closer look

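In 5 of 42 groups of libraries checked, 1 library stood apart from the rest by Dixon's ratio, where chance gives about 1 in 20. Control replicate 4 stood above the other controls in Kcnc4 (64.3 CPM, others 6.83 to 14.2 CPM), Kcnip3 (224 CPM, others 11.6 to 42.8 CPM) and Kcnk4 (23.2 CPM, others 2.47 to 4.55 CPM). Among the 6-day libraries, replicate 7 stood above the others in Abcc9 (3.48 CPM, others 0 to 1.19 CPM) and in Lrrc55 (4.03 CPM, others 0.153 to 1.43 CPM). Both libraries belong to identifier range B, and the part of the range in these values was not tested apart from the library.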

How the results depend on the processing

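The direction of a named gene turned in 48 values, which fell in 15 of the 59 pairs of a gene and a comparison followed, and none of these values was called. In log2, at 6 days against control, Kcnh3 was -0.018 with RLE factors, -0.025 with upper-quartile factors, -0.017 with DESeq2, -0.27 with limma-voom, -0.16 with range B as a covariate, -0.46 without the range B libraries and -0.45 in range A alone. Kcnc4 was 0.43 with limma-voom, 0.36 without range B and 0.38 in range A alone, and Kcnip3 was 0.20, 0.62 and 0.64 in the same settings. Kcnu1 was -0.19 without range B and -0.18 in range A alone, Kcnj2 0.046 with limma-voom and Kcnk7 0.055 with the covariate. In range B alone Kcnk7 was 0.89, Kcna7 -0.18 and Kcnab3 -0.16. At 14 days against control Kcnab3 was 0.30 with limma-voom, 0.23 with the covariate and 0.30 without range B; against 6 days it was 0.062 with the covariate and 0.021 without range B, and Kcng1 was 0.040 with limma-voom. With 1 library left out the 6-day values ran from -0.24 to 0.15 in Kcnh3, -0.065 to 0.69 in Kcna7, -0.52 to 0.99 in Kcnc4, -0.033 to 0.81 in Kcnab3, -1.25 to 0.61 in Kcnip3, -0.75 to 0.12 in Kcnj2, -1.11 to 0.55 in Kcnk4 and -0.34 to 0.13 in Kcnk7. At 14 days against control they ran from -0.21 to 0.46 in Kcnh3 and -0.50 to 0.31 in Kcnab3, and against 6 days from -0.23 to 0.44 in Kcnh3 and -0.92 to 0.14 in Kcng2.

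The count of potassium channel genes called at 6 days was 2 (1.26% of all tested genes were called) and became 6 with DESeq2 (4.51% of all), 5 with limma-voom (4.41%), 5 with range B as a covariate (4.62%), 4 without the range B libraries (2.59%), 4 in range A alone (2.70%) and 0 in range B alone (0.906%), which has a single control. With 1 library left out it ran from 1 to 3 (0.349 to 1.66% of all tested genes). At 14 days against control the count was 7 (6.60%). It became 16 with DESeq2 (14.7%), 17 with limma-voom (22.4%), 3 in a fit of the 2 groups alone (1.96%) and 12 with range B as a covariate (17.0%). It was 1 to 9 with 1 library left out (1.94 to 7.26%). Between 14 and 6 days the count was 0 (3.89%). It became 5 with DESeq2 (13.9%), 11 with limma-voom (25.0%), 1 in a fit of the 2 groups alone (4.08%) and 3 with range B as a covariate (10.9%). It was 1 without the range B libraries (7.37%) and 0 to 2 with 1 library left out (0.0155 to 6.12%). The causes were not tested. RLE and upper-quartile factors and both other filters kept the counts within 1.5 times, as did leaving out range B at 14 days (9, 13.0% of all). Without a filter the 14-day split was 5 higher and 2 lower among 85 tested members, against 3 higher and 4 lower among 52 with it. Over all tested genes the split was 516 higher and 423 lower without a filter, and 609 higher and 629 lower with it. For the named genes, 1255 values kept both direction and side of the threshold, 103 lost and 44 gained a call. No paired analysis was possible because the labels give no replicate numbers. The 41 genes below the filter were not tested, and 8 of them had no count in any library.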
